A study of Mus musculus with 6 samples.

Results

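The 9 genes described here are the single-minded factors Sim1 and Sim2, the sine oculis homeobox factors Six2, Six4 and Six5, and the SRY-box factors Sox4, Sox9, Sox11 and Sox12. They are 9 of the 27179 genes in the count files, and all 9 had a row. They were selected on their levels in these same libraries, so the differences between lines are a description of the members and carry no test. RNA was sequenced from 3 immortalized mouse embryonic fibroblast lines of C57BL/6 background that lack core clock proteins. The line called Cry/Per_KO has the genotype Cry1-/-, Cry2-/-, Per1-/-, Per2-/-, the line Per/Nr1d_KO has the genotype Per1-/-, Per2-/-, Nr1d1-/-, Nr1d2-/-, and the line Cry/Per/Nr1d_KO carries all 6 knockouts. Loss of Per1 and Per2 is therefore shared by every library, and no line with an intact clock was sequenced. CRY and PER are the repressors of the CLOCK-BMAL1 activator and NR1D1 and NR1D2 repress the BMAL1 gene, so the comparisons ask what NR1D and CRY do to the transcriptome of fibroblasts without PER.

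The Cry/Per/Nr1d_KO line is a clone derived from the Cry/Per_KO line by lentiviral CRISPR editing of Nr1d1 and Nr1d2 and puromycin selection, and Per/Nr1d_KO cells came from an earlier study that used the same guides. Each genotype was 1 line with 2 libraries, so line and genotype cannot be told apart, and the spread between libraries is that between RNA samples of 1 line. Cells grew in medium with serum, and the labels give no treatment or time point. The genotype labels and the names under which the counts were deposited disagree for 2 of the 3 lines: the libraries with the Cry/Per_KO genotype label carry the file name of the other line, and the reverse. Samples are grouped here by genotype label, and CPN_KO, CP_KO and PN_KO stand for the libraries labelled with all 6 knockouts (Cry/Per/Nr1d_KO), as Cry/Per_KO and as Per/Nr1d_KO, in that order. The deposited files use the same abbreviations, but the short names here follow the labels. CP_KO here is therefore the pair of libraries whose files are named CPN_KO, and the reverse. If the file names were right, the names CPN_KO and CP_KO would exchange throughout and the values would stay as given. RNA of all 6 deleted genes was counted in every library, so their presence does not check the labels: Nr1d1, for example, had normalized counts of 3158 and 3146 in CPN_KO, 9337 and 9249 in CP_KO and 5359 and 4838 in PN_KO. Arntl, which encodes BMAL1 and is repressed by NR1D, had 1192 and 1171 in CPN_KO, 2176 and 2208 in CP_KO and 2493 and 2455 in PN_KO. Arntl was thus lower in the libraries labelled as lacking NR1D than in those labelled Cry/Per_KO, which goes against these labels. Exchanging the labels as the file names do would give the other order. The study reports less Arntl, Cry1, Nr1d1, Nr1d2 and Per1 RNA in Cry/Per_KO than in Cry/Per/Nr1d_KO cells. Under the labels each of these was higher in CP_KO, with Cry1 at 5323 and 5478 there and 1698 and 1724 in CPN_KO. These genes thus run against the labels and with the file names. CPN_KO and CP_KO therefore mean no more than what a library is labelled, and every direction between them below would turn if the labels are exchanged.

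Depth was 53764390 counts in the shallowest library and 85927236 in the deepest (median 62471571.5). A normalized count is a raw count scaled by edgeR's TMM factors to the mean library size. The test took genes whose normalized counts averaged 100 or more across all libraries, and 8 of the 9 members passed. A gene was called when its adjusted p was under 0.05 and the size of its log2 fold change exceeded 0.81. Of 9 fibroblast markers, 8 passed the filter and Thy1 did not, with normalized counts of 6.21 and 2.22 in CPN_KO, 3.34 and 0 in CP_KO and 0 and 0 in PN_KO. The sum of the 9 markers was 947812 to 998098 in CPN_KO, 867197 to 888581 in CP_KO and 1713450 to 1731070 in PN_KO. The sum does not stand for each marker, since 4 of the 8 tested were called higher and 4 lower in PN_KO than in CPN_KO. In bulk RNA, fewer expressing cells and less RNA per cell cannot be told apart.

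SIM proteins are bHLH-PAS transcription factors, the class to which CLOCK and BMAL1 belong, and bind DNA as dimers with ARNT or ARNT2. SIM1 is known for the development of hypothalamic neurons and SIM2 for the development of muscle, palate and breast epithelium. Sine oculis homeobox proteins bind DNA and recruit EYA coactivators or TLE corepressors in kidney, muscle and craniofacial mesenchyme, where SIX2 keeps nephron progenitors undifferentiated. SOX proteins bend DNA through an HMG box: SOX9 drives cartilage genes, and SOX4, SOX11 and SOX12 form the SOXC group, which acts in neural and mesenchymal progenitors.

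The promoters of the members whose RNA was almost lost or gained between lines are shown for those with an entry in the promoter table used here, with Sox4 as the member that differed in level without being lost. Each window runs from 250 bases before the start site to 50 after it, 5′ to 3′ on the gene's strand, from RefSeq on GRCm38.p6. Capitals mark matches to CCAAT, the CCAAT box, and to AGGTCA, the half-site to which NR1D and ROR receptors bind, either of them on either strand, so that the CCAAT box may read ATTGG. The windows are chr10:50895401-50895700 (plus strand) for Sim1, chr17:85688205-85688504 (minus strand) for Six2, chr12:27342669-27342968 (minus strand) for Sox11 and chr13:28953650-28953949 (minus strand) for Sox4.
Sim1: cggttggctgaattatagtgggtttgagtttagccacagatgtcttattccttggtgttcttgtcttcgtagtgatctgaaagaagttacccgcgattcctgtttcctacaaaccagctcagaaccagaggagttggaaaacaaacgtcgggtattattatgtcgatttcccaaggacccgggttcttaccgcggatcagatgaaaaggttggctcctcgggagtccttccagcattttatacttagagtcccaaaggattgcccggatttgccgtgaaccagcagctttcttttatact
Six2: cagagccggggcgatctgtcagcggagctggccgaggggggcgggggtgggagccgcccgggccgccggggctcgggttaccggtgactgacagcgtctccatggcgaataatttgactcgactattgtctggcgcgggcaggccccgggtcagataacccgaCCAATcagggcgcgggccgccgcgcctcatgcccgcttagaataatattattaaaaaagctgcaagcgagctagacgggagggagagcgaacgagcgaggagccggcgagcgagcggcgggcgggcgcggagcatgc
Sox11: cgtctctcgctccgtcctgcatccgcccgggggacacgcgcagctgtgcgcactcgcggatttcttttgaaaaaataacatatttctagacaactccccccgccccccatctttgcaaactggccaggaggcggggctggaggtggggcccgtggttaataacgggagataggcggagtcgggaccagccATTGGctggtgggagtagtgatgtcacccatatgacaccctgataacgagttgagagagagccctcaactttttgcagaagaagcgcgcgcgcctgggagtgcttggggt
Sox4: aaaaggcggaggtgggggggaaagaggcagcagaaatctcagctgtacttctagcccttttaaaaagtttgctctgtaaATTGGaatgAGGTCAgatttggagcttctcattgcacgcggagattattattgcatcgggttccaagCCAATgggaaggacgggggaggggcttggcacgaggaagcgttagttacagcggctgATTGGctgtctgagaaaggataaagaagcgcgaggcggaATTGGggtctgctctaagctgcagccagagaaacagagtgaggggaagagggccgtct

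Of the 9 members, 7 had an entry, with 8 windows in all because Six4 had 2. The E-box CACGTG, the site of CLOCK-BMAL1, was in none of the 8 windows, and 7.15% of all 32851 promoters in the table held it. The related letters CACGTT were in both Six4 windows, at positions -185 and -5 from the respective start site, which is the same place because the windows overlap, and in 4.68% of all promoters. AGGTCA stood only in the Sox4 window, at position -162 from the start, and in 16.3% of all promoters. The CCAAT box was in 37.4% of all promoters: it occurred 4 times in the Sox4 window and 1 time each in those of Six2, Sox11, Sox12 and the upstream Six4 window, and did not occur in that of Sim1, Six5 or the other Six4 window. GC content was 76.7% for Sox12, 67.3% for Six2, 66.0% for Six5, 58.7% for Sox11, 52.0% for Sox4 and 46.0% for Sim1, against a median of 52.7% over all promoters. These letters are descriptions of the windows and not sites shown to be bound.

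The lines, named by their labels and subject to the exchange of CP_KO and CPN_KO given above, differed in the members they lacked, as the plot of member levels by library shows. PN_KO had almost no Six2 and no Sim1, CP_KO had no Sim2 and almost no Sox11, and CPN_KO had all 9. In PN_KO, Sox4 and Sox11 were also higher and Sox9 was lower than in both other lines, whereas Six4, Six5 and Sox12 stayed within a log2 difference of 0.81 between any pair of lines. In CP_KO against CPN_KO, 2 of the 8 members above the filter were called, both lower (Sim2 and Sox11), where 16.8% of the 11934 genes tested were called, 7.86% higher and 8.95% lower. In PN_KO against CPN_KO, 4 were called, 2 higher (Sox4 and Sox11) and 2 lower (Six2 and Sox9), where the background was 20.7%, with 11.3% higher and 9.35% lower. In PN_KO against CP_KO, 5 were called, 3 higher (Sim2, Sox4 and Sox11) and 2 lower (Six2 and Sox9), where it was 29.0%, with 15.2% higher and 13.8% lower. Because the members were chosen by these values, nothing is read from their count against the background. The 3 comparisons share libraries, since each line enters 2 of them.

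**Figure D1:**
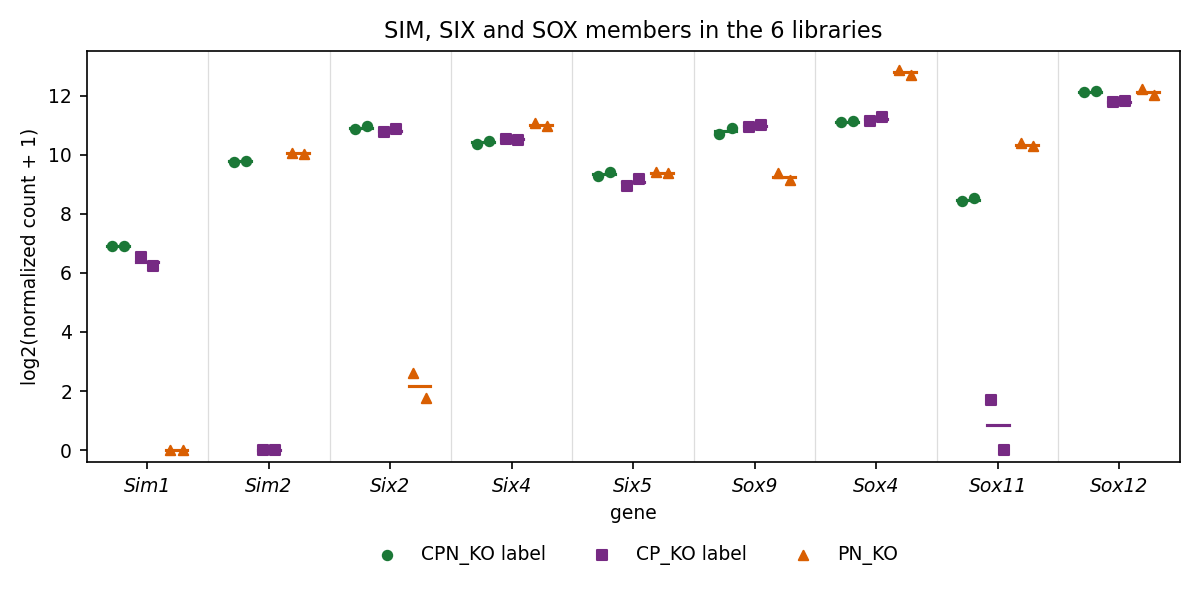
Levels of the 9 members in the 6 libraries, as log2(normalized count + 1) per gene; points are libraries and horizontal lines the mean of the 2 log2 values of a line (green circles CPN_KO, purple squares CP_KO, orange triangles PN_KO, by genotype label). Sim2 and Sox11 sit at or near 0 in CP_KO, and Sim1 and Six2 at or near 0 in PN_KO, far from the other libraries.

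Sim1 (Entrez gene 20464, chr10:50894698-50989156 on GRCm38.p6) had normalized counts of 121 and 119.9 in CPN_KO, 92.4 and 73.6 in CP_KO and 0 and 0 in PN_KO. No read was counted in either PN_KO library, and the other 2 lines did not overlap. Against a floor of 3 counts per library, Sim1 was at least 39.0-fold lower in PN_KO than in CPN_KO and at least 26.9-fold lower than in CP_KO. CPN_KO exceeded CP_KO by 1.45-fold, a log2 difference for CP_KO of -0.54 (SE 0.18). With a mean under 100 normalized counts, Sim1 was the member below the filter and entered no test.

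Sim2 (20465, chr16:94085104-94127032) was missing from another line, with normalized counts of 869 and 882 in CPN_KO, 0 and 0 in CP_KO and 1075 and 1053 in PN_KO. Both CP_KO libraries were at 0, while the 2 other lines were near each other. Its level in CP_KO was at least 279-fold below that in CPN_KO and at least 339-fold below that in PN_KO. PN_KO exceeded CPN_KO by 1.21-fold, with a log2 difference of 0.28 (SE 0.08) and no overlap between their libraries. Each line therefore had a different SIM complement: CPN_KO had RNA of both genes, CP_KO of Sim1 alone and PN_KO of Sim2 alone.

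Six2 (20472, chr17:85662736-85688254) had normalized counts of 1876 and 1995 in CPN_KO, 1726 and 1865 in CP_KO and 5.07 and 2.37 in PN_KO. The PN_KO values rest on 4 and 3 raw reads, and all other libraries lie above them by a wide margin. The summed counts were 567-fold lower in PN_KO than in CPN_KO, with an exact 95% counting interval of 275 to 1410.1, and 529-fold lower than in CP_KO, with an interval of 256 to 1316. These intervals cover counting error only. CP_KO and CPN_KO differed by -0.11 (SE 0.07) on the log2 scale, and the higher CP_KO library nearly reached the lower CPN_KO library.

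Six4 (20474, chr12:73099609-73114031), a homeobox gene of muscle precursors, had normalized counts of 1326 and 1404 in CPN_KO, 1496 and 1454 in CP_KO and 2137 and 2008 in PN_KO. All 3 lines expressed it, with PN_KO highest and no overlap between PN_KO and the others. Its log2 difference was 0.60 (SE 0.06) against CPN_KO and 0.49 (SE 0.06) against CP_KO, both within the limit of 0.81. CP_KO against CPN_KO gave 0.11 (SE 0.06).

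Six5 (20475, chr7:19094544-19098549), a gene of the myotonic dystrophy locus, had normalized counts of 618 and 681 in CPN_KO, 495 and 584 in CP_KO and 681 and 666 in PN_KO. Its libraries overlapped between CPN_KO and PN_KO, and both CP_KO libraries were lowest. The log2 difference was -0.26 (SE 0.09) for CP_KO against CPN_KO, 0.05 (SE 0.09) for PN_KO against CPN_KO and 0.31 (SE 0.09) for PN_KO against CP_KO.

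Sox9 (20682, chr11:112782210-112787757) had normalized counts of 1654 and 1901 in CPN_KO, 1944 and 2075 in CP_KO and 667 and 563 in PN_KO. It was the SOX member that was lower in PN_KO, by 2.89-fold against CPN_KO (log2 difference -1.54, SE 0.09) and by 3.27-fold against CP_KO (-1.72, SE 0.09). CP_KO against CPN_KO gave 0.18 (SE 0.08), with both CP_KO libraries just above both CPN_KO libraries.

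Sox4 (20677, chr13:28948919-28953699), the SOXC gene whose protein acts widely in progenitor survival and in epithelial-mesenchymal transition, had normalized counts of 2187 and 2278 in CPN_KO, 2275 and 2496 in CP_KO and 7521 and 6729 in PN_KO. PN_KO was 3.19-fold above CPN_KO, a log2 difference of 1.67 (SE 0.06), and 2.99-fold above CP_KO, a log2 difference of 1.58 (SE 0.06). CPN_KO and CP_KO overlapped, at 0.10 (SE 0.06). In the GENCODE annotation, 54.6% of the exon bases of Sox4 also lie in exons of Gm26735 on the opposite strand. The kit keeps the strand of the RNA, but the strand setting of the counting was not given in the sources used here, so reads of that transcript may be part of the Sox4 counts.

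Sox11 (20666, chr12:27334268-27342718), a SOXC gene of neuronal and mesenchymal progenitors, had normalized counts of 342 and 369 in CPN_KO, 2.23 and 0 in CP_KO and 1337 and 1244 in PN_KO. The CP_KO values rest on 2 and 0 raw reads, and the 3 lines were fully separate, with PN_KO highest. CPN_KO exceeded CP_KO by 339-fold (exact 95% counting interval 93.5 to 2805) and PN_KO exceeded CP_KO by 1227-fold (339 to 10135). PN_KO was 3.63-fold above CPN_KO, a log2 difference of 1.86 (SE 0.10). Sox11 was thus lowest in the line without Sim2 and highest in the line without Six2. The fitted log2 difference of CP_KO against CPN_KO was -8.25 and depended on a single library: it was -11.50 without CP_KO replicate 1, the library with the 2 reads, and -7.24 without replicate 2. For PN_KO against CP_KO the same omissions moved 10.11 to 13.36 and 9.10.

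Sox12 (20667, chr2:152393611-152398046), the third SOXC gene, had normalized counts of 4464 and 4522 in CPN_KO, 3526 and 3588 in CP_KO and 4759 and 4157 in PN_KO. It was the most even SOX member: its log2 difference was -0.34 (SE 0.06) for CP_KO against CPN_KO, -0.01 (SE 0.06) for PN_KO against CPN_KO and 0.32 (SE 0.06) for PN_KO against CP_KO. The PN_KO libraries spanned both CPN_KO libraries, and both CP_KO libraries lay below all others. The SOXC genes thus had 3 different profiles by their values.

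Levels of different genes were compared per kb of exon, using GENCODE exon unions (normalized counts per kb, mean ± SD, n = 2). In CPN_KO the order was led by Sox12 at 1009 ± 9.22 and Six2 at 913 ± 39.6, followed by Sox4 at 466 ± 13.4 and Sox9 at 429.9 ± 42.3, which did not differ beyond their spread. Six5 at 216 ± 14.8 and Sim2 at 207 ± 2.11 were likewise within their spread, and Six4 at 126 ± 5.04, Sox11 at 42.7 ± 2.29 and Sim1 at 14.0 ± 0.0662 came last. In CP_KO, Six2 at 847 ± 46.2 and Sox12 at 799 ± 9.84 were within their joint spread at the top, as were Sox4 at 497 ± 32.6 and Sox9 at 486 ± 22.3 behind them. Six5 at 179 ± 20.9, Six4 at 136 ± 2.71 and Sim1 at 9.63 ± 1.54 followed, and Sox11 and Sim2 closed the order. In PN_KO, Sox4 led at 1486 ± 117, ahead of Sox12 at 1001 ± 95.7. Sim2 at 252 ± 3.73, Six5 at 224 ± 3.46 and Six4 at 191 ± 8.40 came next, then Sox11 at 155 ± 7.90 and Sox9 at 149 ± 17.8, which were within their spread. Six2 and Sim1 were near and at 0. Six2 thus went from the top 2 places in CPN_KO and CP_KO to the last but 1 in PN_KO, and the SOXC gene Sox4 took the first place there.

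**Figure D2:**
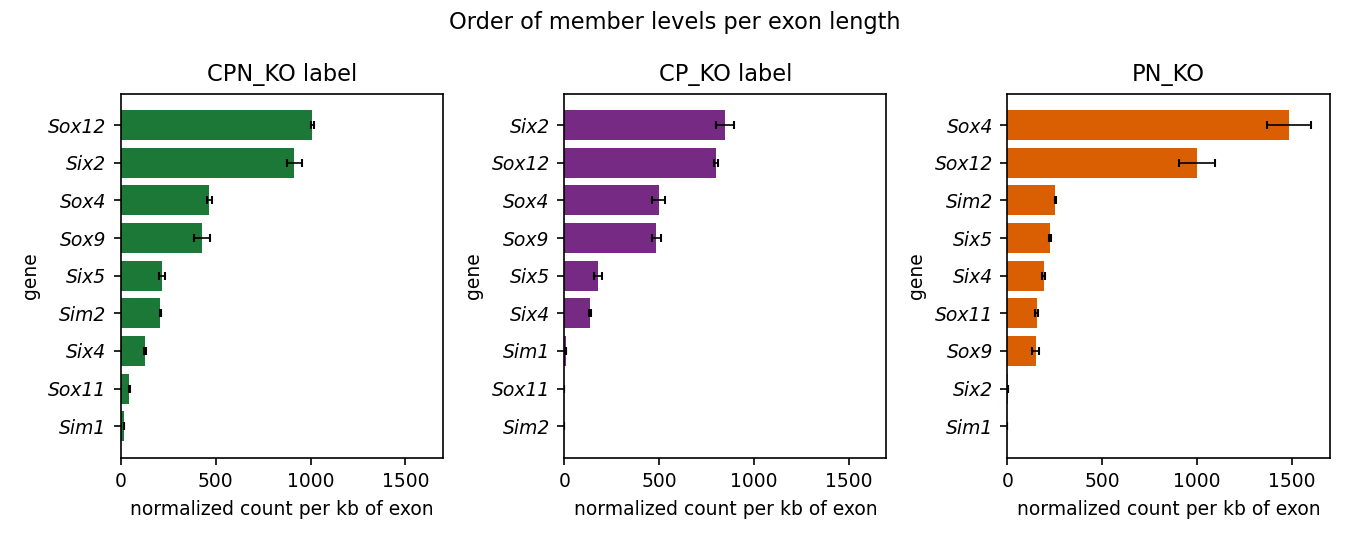
Members ordered by level in each line, as normalized counts per kb of exon; bars are the mean of 2 libraries and error bars the SD, and each panel has the same linear axis from 0. Sox12 is among the top 2 in every line, and Six2 is among the top 2 in CPN_KO and CP_KO but close to 0 in PN_KO.

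Of the 18 other family genes listed (of which Sox1, Sox3 and Sox14 had no count in any library), Six3 and Sox13 are described here. Six3, a forebrain and eye gene, had normalized counts of 347 and 361 in CPN_KO, 53.4 and 56.0 in CP_KO and 1.27 and 3.16 in PN_KO. It was lower in CP_KO than in CPN_KO (log2 fold change -2.69, SE 0.14), and its summed counts in PN_KO were 145-fold below CPN_KO (counting interval 62.0 to 449). Sox13, a SOXD gene, had 65.7 and 64.4 in CPN_KO, 15.6 and 14.7 in CP_KO and 341 and 307 in PN_KO and followed the order of Sox11, with a log2 fold change of -2.10 (SE 0.25) in CP_KO and 2.30 (SE 0.14) in PN_KO against CPN_KO. Both passed the filter only through the line where they were high, so these values are given with no test. Below the filter, the SOXE gene Sox8 had 139 and 107 in CPN_KO, 14.5 and 12.8 in CP_KO and 82.4 and 57.6 in PN_KO and the pluripotency factor Sox2 had 55.0 and 47.8 in CPN_KO, 39.0 and 30.4 in CP_KO and 161 and 113 in PN_KO.

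The related genes were followed in 6 lists of 61 genes in all, with the family members above included. Of these, 6 had no count in any library and 29 passed the filter. Of these 29, 13 were called in CP_KO against CPN_KO (3 higher and 10 lower, median log2 fold change -0.39 against -0.0033 over all genes tested). In PN_KO against CPN_KO 15 were called (7 higher and 8 lower, median 0.26 against 0.01), and in PN_KO against CP_KO 20 were (14 higher and 6 lower, median 0.81 against 0.03). The calls were 44.8%, 51.7% and 69.0% of the listed genes tested, beside the backgrounds of 16.8%, 20.7% and 29.0% above. The lists were chosen with earlier results of these data known, so nothing is read from the excess over the background. A listed gene that passed only through the line where it was high had to differ, so these shares are descriptions. Six3, Sox13, Eya2 and Acan are such genes and are included in the counts of calls.

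Among 16 partners and cofactors, 12 passed the filter, and 4, 5 and 5 were called in the 3 comparisons in the order above. These counts include Eya2, which is given below with no test. Of all genes tested, 16.8%, 20.7% and 29.0% were called in that order. Arnt, the SIM dimer partner, had normalized counts of 8709 and 8825 in CPN_KO, 5041 and 4883 in CP_KO and 11060.2 and 10715 in PN_KO and was lower in CP_KO than in CPN_KO, with a log2 fold change of -0.82 (SE 0.04, edgeR adjusted p = 2.9e-10). Arnt2 had 1201 and 1152 in CPN_KO, 463 and 552 in CP_KO and 1564 and 1559 in PN_KO and was lower there too, at -1.21 (SE 0.08, edgeR adjusted p = 4.7e-09). The line without Sim2 was thus the line with least Arnt and Arnt2. The EYA coactivators of the sine oculis proteins divided: Eya2 had 126 and 112 in CPN_KO, 0 and 0 in CP_KO and 416 and 376 in PN_KO and was at least 37.9-fold lower in CP_KO than in CPN_KO. It passed the filter only through PN_KO and is given with no test. Eya4 had 1818 and 1902 in CPN_KO, 3054 and 2917 in CP_KO and 10677 and 10692 in PN_KO and was higher in PN_KO than in CPN_KO by 2.52 (SE 0.05, edgeR adjusted p = 7.3e-16). Eya1 had 1598 and 1676 in CPN_KO, 1410.1 and 1408 in CP_KO and 867 and 813 in PN_KO and was lower there, at -0.97 (SE 0.07, edgeR adjusted p = 3.4e-09), whereas Eya3, with 6737 and 6943 in CPN_KO, 6847 and 6805 in CP_KO and 6317 and 6257 in PN_KO, was not called in any comparison.

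Pou3f3, a POU factor of the class that pairs with SOX proteins, had normalized counts of 932 and 982 in CPN_KO, 1984 and 2071 in CP_KO and 2.53 and 0 in PN_KO, so that PN_KO nearly lacked it as it nearly lacked Six2. Its summed counts in PN_KO were 981-fold below CPN_KO (counting interval 271 to 8107, edgeR adjusted p = 1.0e-14). In CP_KO it was 2.12-fold above CPN_KO (log2 fold change 1.08, SE 0.08, edgeR adjusted p = 8.4e-09). Of the TLE corepressors only Tle4 was called, lower in PN_KO than in CPN_KO at -1.31 (SE 0.08, edgeR adjusted p = 8.9e-10).

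**Figure D3:**
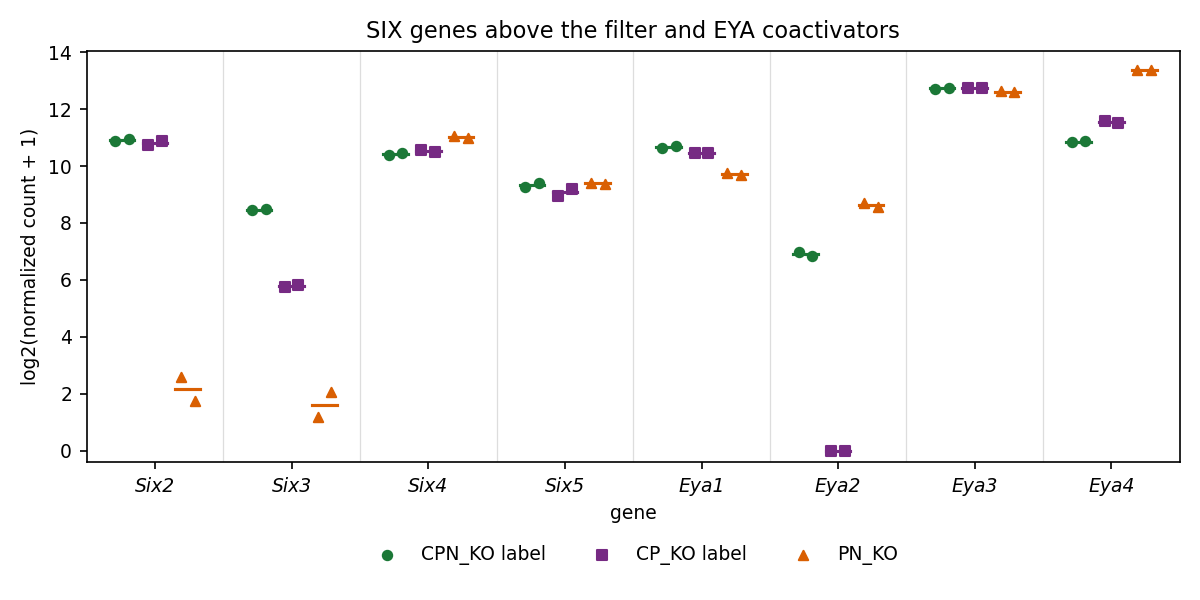
The family genes Six2 to Six5, all above the filter, and the 4 EYA coactivator genes in the 6 libraries, as log2(normalized count + 1); points are libraries and lines the mean of the 2 log2 values, with colours by genotype label. Six2 and Six3 are lowest in PN_KO, where Eya4 is highest, and Eya2 is at 0 in CP_KO.

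Of 12 cartilage genes that SOX9 is known to drive, 4 passed the filter, and 4, 2 and 4 were called in the same order of comparisons. These counts include Acan, which is given below with no test. The share of all tested genes called was 16.8%, 20.7% and 29.0% in that order. Col2a1, the main cartilage collagen, had normalized counts of 2859 and 2427 in CPN_KO, 12.2 and 16.7 in CP_KO and 58125 and 58302 in PN_KO, 22.0-fold higher in PN_KO than in CPN_KO (edgeR adjusted p = 2.6e-17) and 183-fold lower in CP_KO (edgeR adjusted p = 2.9e-15). Its order over the lines was not that of Sox9, which was lowest in PN_KO. Acan, the cartilage proteoglycan aggrecan, had 313 and 287 in CPN_KO, 0 and 0.982 in CP_KO and 87.5 and 87.6 in PN_KO and was 3.42-fold lower in PN_KO than in CPN_KO, given with no test because it passed the filter only through CPN_KO. Col11a1 was lower in CP_KO than in CPN_KO at -1.05 (SE 0.05) and Col11a2 was higher at 1.77 (SE 0.14, edgeR adjusted p = 1.0e-10 and 1.4e-08). The cofactor genes Sox5 and Sox6 of this program were under the filter, at 26.0 to 56.6 and 5.56 to 21.3 normalized counts. Of the 7 chondrocyte markers, 6 are also on this list, so their sum is no separate measure of it. It was 2821 to 3284 in CPN_KO, 45.6 to 53.0 in CP_KO and 58429 to 58546 in PN_KO. Col2a1 made up most of the sum in CPN_KO and PN_KO. In CP_KO the largest part was Col10a1, at 27.8 and 25.5. Hapln1 was at 0 in all libraries. The part of these markers in the Sox9 values was not tested.

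**Figure D4:**
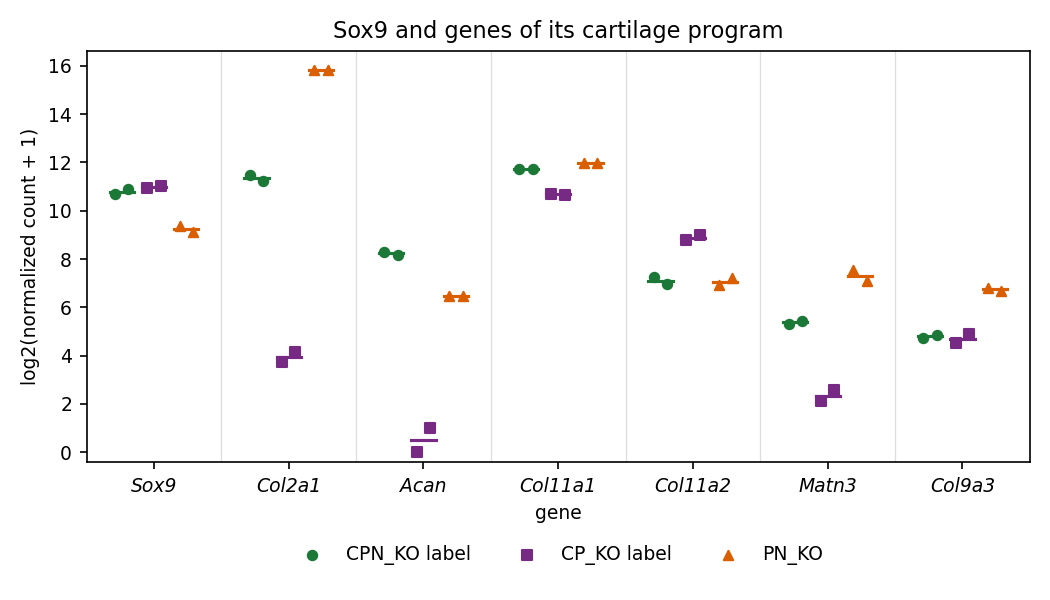
Sox9 and 6 listed cartilage genes in the 6 libraries, as log2(normalized count + 1); points are libraries and lines the mean of the 2 log2 values, with colours by genotype label. Sox9 is lowest in PN_KO, where Col2a1 is highest, and Col2a1, Acan and Matn3 are lowest in CP_KO.

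The short lists of targets held few tested genes. Of the SOX4 and SOX11 targets, Tubb3, a neuronal tubulin, had normalized counts of 1959 and 1776 in CPN_KO, 359 and 356 in CP_KO and 676 and 664 in PN_KO and was lower than in CPN_KO both in CP_KO (-2.38, SE 0.08, edgeR adjusted p = 1.8e-12) and in PN_KO (-1.48, SE 0.07, edgeR adjusted p = 5.3e-11). Against CP_KO, Tubb3 was higher in PN_KO (0.90, SE 0.09, edgeR adjusted p = 1.0e-07). Tead2 was called only in PN_KO against CP_KO, where it was higher (edgeR adjusted p = 4.6e-11). Of 5 tested targets of the sine oculis proteins, Gdnf, the ureteric bud growth factor, was higher in PN_KO than in CPN_KO at 1.54 (SE 0.06) and Ezr at 1.28 (SE 0.05, edgeR adjusted p = 4.4e-12 and 7.5e-13). Ccnd1, cyclin D1, had 27777 and 27621 in CPN_KO, 12421 and 12804 in CP_KO and 2441 and 2402 in PN_KO and was lower there at -3.52 (SE 0.05, edgeR adjusted p = 7.2e-18). Of 3 SIM2 targets tested, the hypoxia gene Bnip3 had 1025 and 1104 in CPN_KO, 4109 and 3934 in CP_KO and 1845 and 1627 in PN_KO. Bnip3 was higher in CP_KO than in CPN_KO, at 1.92 (SE 0.07, edgeR adjusted p = 4.0e-12). Mmp3 was lower in PN_KO than in CPN_KO at -1.30 (SE 0.09, edgeR adjusted p = 3.9e-09), and Snai2 was not called in any comparison. The part of Sim2 or any other member in the values of these targets was not tested.

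The genes next to the members did not share a single pattern. Six3 lies 36545 bases from Six2 and was nearly absent from PN_KO as Six2 was, but differed from it in CP_KO. Srbd1, on the other side of Six2, was not called in any comparison. Mnat1, whose gene span overlaps Six4 with no shared exon base, was not called. Dmpk, 723 bases from Six5, had normalized counts of 568 and 596 in CPN_KO, 536 and 608 in CP_KO and 331 and 294 in PN_KO and was lower in PN_KO than in CPN_KO at -0.91 (SE 0.10, edgeR adjusted p = 8.1e-07), while Six5 had a log2 difference of 0.05. Hlcs, 2274 bases from Sim2, had 1209.8 and 1240.1 normalized counts in CP_KO, where Sim2 had none. Ascc3, beside Sim1, had 14379.8 and 14190.1 in PN_KO, where Sim1 had none, and was higher there than in CPN_KO (0.95, SE 0.05, edgeR adjusted p = 4.3e-11). Zcchc3, 13910 bases from Sox12, had 2.66 and 5.55 in CPN_KO, 0 and 0 in CP_KO and 450.0 and 428 in PN_KO, and its summed counts were 111-fold higher in PN_KO than in CPN_KO (counting interval 55.9 to 257), beside a Sox12 log2 difference of -0.01. Zcchc3 passed the filter only through PN_KO and is given with no test. The listed neighbours of Sox4, Sox9 and Sox11 were all below the filter.

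For each tested member, the genes with the most similar profile were found by the Euclidean distance between centred log2 CPM values over the 6 libraries, as a description. Clip3 and Hand2 were nearest to Sim2, at distances of 0.96 and 1.26, and Hand2 likewise had no count in CP_KO (391 and 445 in CPN_KO, 0 and 0 in CP_KO and 1185 and 978 in PN_KO normalized counts). Grem1 and Efemp1 were nearest to Six2, at 0.57 and 0.64; Grem1, a BMP antagonist, had 28938 and 29431 in CPN_KO, 26353 and 25944 in CP_KO and 129 and 95.5 in PN_KO. Itga11 and Klhl22 were nearest to Sox11, at 0.77 and 0.88, and neither was at 0 in CP_KO, with 17.8 and 9.82 and 16.7 and 16.7 normalized counts. Rnf122 and Gal3st4 were nearest to Sox4, Cdhr1 and Gm17762 to Sox9, Emc2 and Map4k4 to Six4, and Cherp and Prr12 to Sox12, all at 0.20 or less. Zbtb45 was near Six5 at 0.12, after an unnamed gene at 0.097.

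Markers of other cell types are given as sums. Those of the 6 skeletal muscle, 6 epithelial, 4 endothelial and 4 macrophage markers stayed at or under 326 normalized counts in every library. The 6 neural markers summed to 3657 to 4128 in CPN_KO, 5088 to 5228 in CP_KO and 488 to 546 in PN_KO, mostly Map2, and Olig2 was at 0 throughout. This sum had the same order over the lines as Sox9, and the chondrocyte sum had the same order as Sox11. Their part in the member values was not tested. By chromosome, the median log2 difference of all tested genes in CP_KO against CPN_KO was 0.35 on chromosome 12, which holds Six4 and Sox11, 0.35 on chromosome 13, which holds Sox4, -0.27 on chromosome 7, which holds Six5, -0.12 on chromosome 17, which holds Six2, and -0.19 on chromosome 2, which holds Sox12. With those medians subtracted, the difference became -0.23 for Six4, -0.25 for Sox4, 0.0060 for Six5, 0.02 for Six2 and -0.14 for Sox12, so that the sign turned for Six4, Sox4, Six5 and Six2, none of which was called.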

How the data were processed

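Poly-A RNA of 6 libraries (3 lines, 2 libraries each) was sequenced as single 50-base reads from a strand-keeping kit. The authors deposited raw counts per Entrez gene, made with STAR on mm10 and featureCounts, per the labels and the study's methods; the strand setting and the treatment of reads with several matches were not given in the sources used here. The authors' own DESeq2 (1.22.2) tables, which hold mean counts, log2 fold changes, their errors and p-values for Cry/Per_KO and Per/Nr1d_KO against Cry/Per/Nr1d_KO, were not used.

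Symbols came from the gene table for 25275 of 27179 IDs, and gene positions from RefSeq (GRCm38.p6). Counts as deposited were fitted over all 6 libraries with edgeR 4.0.16 (R 4.3.3; TMM scaling, quasi-likelihood F-test), for the 11934 genes whose normalized counts averaged 100 or more. Adjusted p-values are Benjamini-Hochberg over all of them, and a call needs an adjusted p under 0.05 and a log2 fold change beyond 0.81, the study's fold limit. Folds against libraries at 0 use a floor of 3 counts per library. Folds against 10 or fewer summed counts carry exact 95% intervals, which cover counting error only. The 2 libraries of a line are independent experiments on 1 line, so p-values measure only the spread within that line. The 2 libraries of a line differed by more than counting noise (chi-square per degree of freedom 8.07 to 16.8). On simulated data for Per/Nr1d_KO against Cry/Per/Nr1d_KO over 11934 genes, the fit recovered 100 of 100 genes changed 2-fold and 100 of 100 changed 4-fold, with 0 false calls. The simulation gave every gene the same small spread and, apart from the changed genes, the same level in all lines. It therefore checks the code only and cannot give error rates for genes of larger spread.

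The members and the gene lists were chosen with earlier results of these data known. The genes named are all 9 members, the called genes of the related lists with the largest changes and the family genes above the filter, the 2 tested genes with the nearest profile to each member, the next annotated genes, and the edited genes with Arntl as a check of labels. Marker lists are given as sums. Alternatives tried were DESeq2 1.42.0, its size factors, lower filters, no fold limit, the compared lines alone, the replicate number as a block, subtraction of chromosome medians and omission of each library. Shared 50-base stretches with other genes made up 0.0934% of the exon stretches of Sim1, 0.978% of Six2 and 0.459% of Six4, and 0 of those of the other 6 members. Some results are not reported here.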

Additional observations from a re-analysis of the deposited data

How the results depend on the processing

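The counts of calls of all genes and of the related genes stayed within 1.5 times the values given above with DESeq2 at an adjusted p under 0.05, with its size factors, with the compared lines alone, with chromosome medians subtracted and without any single library. In CP_KO against CPN_KO, calls numbered 1150 genes and 8 related genes with DESeq2 at an adjusted p under 1e-22, 3311 genes with a mean of at least 10, 3808 genes and 22 related genes with no filter, and 9118 and 24 with no fold limit. In PN_KO against CPN_KO they numbered 3912 and 23 with a mean of at least 10, 4576 and 25 with no filter (2242 of the 4576 genes higher, so that most were lower, against 1352 of 2468 higher above), and 9042 and 27 with no fold limit. In PN_KO against CP_KO they numbered 5590 genes with no filter and 9793 with no fold limit. Relaxing the filter called Sim1 lower in PN_KO than in both other lines, and no other member call changed under the alternatives run for members, which did not include the DESeq2 limit of 1e-22 or the removal of the fold limit. Subtracting chromosome medians moved 10 of 24 member differences beyond their spread. Beside the sign changes given above for CP_KO against CPN_KO, the sign of differences near 0 turned in PN_KO against CPN_KO for Six5 (-0.02 without CPN_KO replicate 1) and Sox12 (0.10 with chromosome medians subtracted, 0.08 without PN_KO replicate 2). Depth limits Sim1, Sim2, Six2 and Sox11 in the lines where they had 0 to 4 reads per library.

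The replicate numbers are only names here: deviations of same-numbered libraries correlated at -0.21, -0.10 and -0.024 between the 3 pairs of lines. With a replicate block, 2002, 2468 and 3457 genes and 13, 15 and 21 related genes were called in the 3 comparisons.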
